A study of Homo sapiens with 4 samples.

Results

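The genes examined here encode 5 bone morphogenetic protein (BMP) ligands, BMP2, BMP4, BMP5, BMP6 and BMP7, and 4 receptors, the type I receptors BMPR1A, BMPR1B and ACVR1 and the type II receptor BMPR2. They are 9 of the 20033 protein-coding genes of the GENCODE annotation of hg38. The list follows gene family but leaves out other ligands and receptors of it, and was chosen with earlier results of these data known. For each gene, the GATA3 positions within 100 kb of its 5′ end or inside its body were taken, together with any position that the authors had labelled with its symbol. H1, an established human embryonic stem cell (hESC) line, was grown in mTeSR1 medium, and BMP4 was added to 50 ng/ml for 6 h. DNA crosslinked to GATA3 was immunoprecipitated and sequenced (ChIP-seq) in 2 replicates, each with an input chromatin sample. All groups carried the BMP4 treatment, and no untreated chromatin entered the comparisons, so the positions describe binding after BMP4 and not a change caused by it.

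A BMP ligand assembles type I and type II receptor kinases at the cell surface, and the type II receptor phosphorylates the type I receptor, which in turn phosphorylates SMAD1 and its close relatives. Phosphorylated SMAD proteins enter the nucleus with SMAD4 and act on target genes, and in hESC this pathway drives exit from pluripotency. GATA3 is a zinc-finger transcription factor that recognizes the motif WGATAR, in which W is A or T and R is A or G, and genes of the pathway can themselves be targets of the factors it induces.

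The peak files listed 18456 chromosomal positions in replicate 1 and 12782 in replicate 2, 1.44 times as many in the first. A shared region was defined as positions of the 2 replicates at most 100 bp apart, and there were 9145 of these. The member windows held 19 positions of replicate 1 and 18 of replicate 2, which gave 10 shared regions and 17 positions found in 1 replicate alone. No position outside a window carried the symbol of a member. Read depth could not be derived from position lists, so the difference in number between the replicates was not set against depth.

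The sequence at the shared region nearest to the 5′ end is shown for 4 genes, BMP4, BMP7, BMPR1B and ACVR1, since these are the stretches in which a GATA motif would be read. Each line gives 200 bases of the hg38 plus strand around the region centre, with the distance from the 5′ end in the direction of transcription as its name. Capitals mark WGATAR on either strand, so that AGATAG reads CTATCT and TGATAA reads TTATCA when the motif lies on the minus strand. The stretches are chr14:53952408-53952607 (BMP4), chr20:57269325-57269524 (BMP7), chr4:94856156-94856355 (BMPR1B) and chr2:157808991-157809190 (ACVR1).
BMP4 +6.25 kb: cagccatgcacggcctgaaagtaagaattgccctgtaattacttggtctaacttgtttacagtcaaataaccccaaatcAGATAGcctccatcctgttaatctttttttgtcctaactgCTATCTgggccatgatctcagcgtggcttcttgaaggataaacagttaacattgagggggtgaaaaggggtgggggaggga
BMP7 -2.78 kb: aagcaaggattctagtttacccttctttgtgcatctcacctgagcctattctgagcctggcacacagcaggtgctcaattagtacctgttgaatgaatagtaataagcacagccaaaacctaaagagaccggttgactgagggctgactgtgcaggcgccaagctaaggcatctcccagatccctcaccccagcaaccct
BMPR1B +98.3 kb: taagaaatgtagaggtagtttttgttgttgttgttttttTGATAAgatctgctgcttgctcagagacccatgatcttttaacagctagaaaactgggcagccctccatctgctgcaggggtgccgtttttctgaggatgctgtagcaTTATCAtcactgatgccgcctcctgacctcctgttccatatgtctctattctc
ACVR1 +67.2 kb: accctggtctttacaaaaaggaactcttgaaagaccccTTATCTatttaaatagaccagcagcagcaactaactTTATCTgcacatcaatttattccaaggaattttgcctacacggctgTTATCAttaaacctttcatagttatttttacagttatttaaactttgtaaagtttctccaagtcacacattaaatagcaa
The BMP4 stretch held an AGATAG site on each strand, 18 bp to the left and 22 bp to the right of the centre. In the BMPR1B stretch, a TGATAA on the plus strand lay 58 bp to the left of the centre and one on the minus strand 50 bp to the right. The ACVR1 stretch held 3 sites, all on the minus strand, and the BMP7 stretch held none.

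Shared regions were present at 6 of the 9 genes, in windows built by the same rule that held one for 47.5% of all protein-coding genes. All 4 receptors had at least 1, against 2 of the 5 ligands, BMP4 and BMP7. Because long genes have long windows, the same share was read from genes with windows of like length. It was 44.8% of the 17909 genes with windows as long as those of the ligands and 63.7% of the 1914 genes with windows as long as those of the receptors. The median gene had 0 shared regions, the median ligand 0 and the median receptor 1.5. BMPR1A had 3, a number reached or passed by 5.80% of protein-coding genes and by 11.3% of those with windows as long as those of the receptors. These counts were not tested against all genes.

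**Figure D1:**
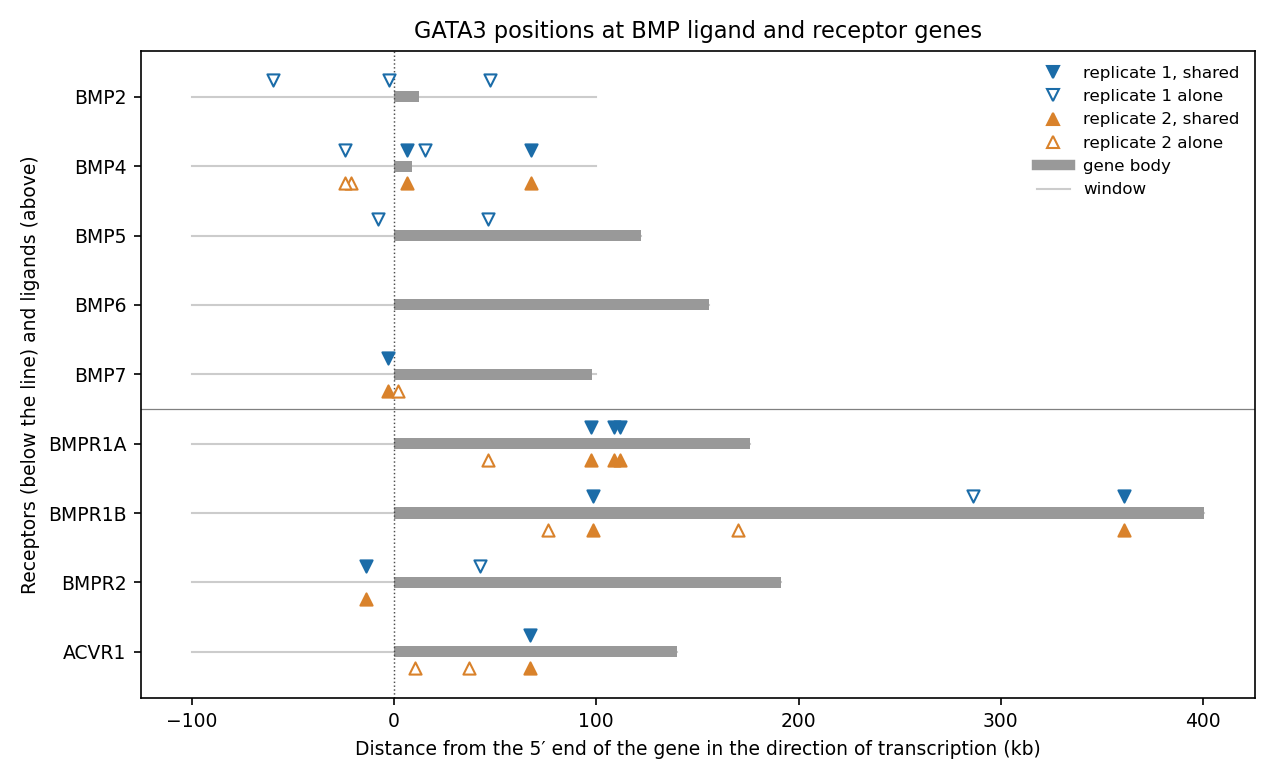
GATA3 positions around the 9 genes, by distance from the 5′ end in kb in the direction of transcription (x axis) and gene (y axis, ligands above the line and receptors below it). Downward triangles are replicate 1 and upward triangles replicate 2, filled where the other replicate lay within 100 bp, grey bars are gene bodies and thin lines the windows. The filled marks of the receptors lie mostly inside the gene bodies, and no mark lies within 1 kb of a 5′ end.

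None of the 37 positions of the members lay within 1 kb of a 5′ end. The nearest was 2.16 kb away, inside BMP7, and was found in replicate 2 alone. Of the 10 shared regions, 7 were in introns of the canonical transcript, 6 of them in receptor genes. Another 2 were upstream of a gene, 1 was downstream and 0 were in exons. The windows include gene bodies by rule. These bodies covered 0.908 Mb of the 1.31 Mb of receptor windows and 0.397 Mb of the 1.08 Mb of ligand windows. The share of all shared regions in introns was not computed. Within 10 kb of the 5′ end, only BMP4 and BMP7 among the members had a shared region, as did 8.69% of all protein-coding genes.

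Other annotated transcript starts were much closer for shared regions of BMP4, ACVR1 and BMPR1B. The 5′ end is the outermost start of a gene, and the BMP4 region lay 0.362 kb upstream of the start of a shorter coding transcript, ENST00000558961.1. BMP4 was thus the only member with a shared region within 1 kb of any of its annotated transcript starts, which 4.41% of protein-coding genes had. The ACVR1 region lay 2.10 kb upstream of the start of such an inner transcript, ENST00000409283.6. BMP4, BMP7 and ACVR1 thus had a shared region within 10 kb of any of their transcript starts, as did 13.6% of protein-coding genes. The BMPR1B region in intron 6 lay 14.5 kb downstream of the start of an inner coding transcript, ENST00000394931.1. Among positions of 1 replicate alone, that inside BMP7 lay 1.29 kb downstream of an inner start. The BMPR1B position at 95044413 lay 7.26 kb upstream of another.

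BMP4 encodes the ligand with which the cells had been treated. Its gene (ENSG00000125378.16, chr14:53949736-53958761, minus strand) had 4 positions in replicate 1 and 4 in replicate 2, the most of any ligand, and 2 shared regions. The first was in intron 2, 6.25 kb from the 5′ end, at 53952536 in replicate 1 and 53952481 in replicate 2, which were 55 bp apart. The second was downstream, 68.0 kb from the 5′ end, at 53890787 and 53890801, only 14 bp apart, with 1 AGATAA site 8 bp from its centre. These regions were 61.7 kb apart. In both, BMP4 had the nearest coding start although the authors' labels named other loci, MIR5580 and AL138479.3.

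Upstream of BMP4 the replicates listed positions close to each other that did not meet the definition. That definition compares single positions, whereas called peaks have a width. The study marked significant GATA3 peaks at the BMP4 gene and its promoter region and measured both by qPCR. Replicate 1 listed 53982870 and replicate 2 listed 53983068.5, 24.1 and 24.3 kb upstream and 198.5 bp apart, the narrowest unshared distance among the members. The next narrowest was 2.67 kb, from the position of replicate 2 at 53980204, 21.4 kb upstream of the gene. The widest pair counted as shared was 76 bp apart, at ACVR1. The study's primer pair for GATA3 ChIP followed by qPCR in the BMP4 intron matched hg38 once, at chr14:53952413-53952500, with its middle 52 bp from the centre of the intronic region. The pair listed for the BMP4 promoter gave no product in hg38. Its first primer matched once, at chr14:53982819-53982838, 41.5 bp from the position of replicate 1 that lay 24.1 kb upstream and 240 bp from the nearest of replicate 2. Its second primer matched once, in intron 2 of BMPR1A. The study's list prints the same sequence for the second primer of its BMPR1A intron 2 pair, so the promoter product could not be placed.

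BMP7 belongs with BMP5 and BMP6 to one subgroup of the ligands. Its gene (ENSG00000101144.13, chr20:57168753-57266641, minus strand) had the shared region nearest to a 5′ end among the members, 2.78 kb upstream at 57269413.5 in replicate 1 and 57269436.5 in replicate 2, 23 bp apart. Only 4.28% of protein-coding genes had a nearer one. The centre fell inside the long non-coding RNA gene ENSG00000226308. Its 200 bases held no WGATAR but held GGCGCC, a motif used by SMAD proteins, which was in 1.96% of all shared regions and in no other region of the members.

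Replicate 2 also listed a position inside BMP7, in intron 1 at 57264485, 4.93 kb from the nearest position of replicate 1. Its sequence, chr20:57264385-57264584, is shown because it is the nearest of all 37 positions to a 5′ end, and was chosen after its values were seen.
BMP7 +2.16 kb: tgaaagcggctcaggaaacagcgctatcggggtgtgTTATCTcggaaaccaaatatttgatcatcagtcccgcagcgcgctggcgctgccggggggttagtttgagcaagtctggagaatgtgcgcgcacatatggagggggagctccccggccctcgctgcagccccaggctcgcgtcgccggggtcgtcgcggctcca
It had a GC content of 63%, the highest of the members' positions, and 1 WGATAR site 61 bp from the centre. The 10 shared regions had between 33% and 50% GC, with a median of 45.3%, against a median of 44% over all shared regions.

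BMP2 encodes the ligand closest to BMP4 in the family. Its gene (ENSG00000125845.7, chr20:6767686-6780246, plus strand) had 3 positions in replicate 1 and 0 in replicate 2. They were 60.0 kb upstream at 6707713, 2.61 kb upstream at 6765081 and 47.6 kb downstream of the 5′ end at 6815321. The nearest positions of replicate 2 were 149, 207 and 185 kb from them, so none was close to the 100 bp limit. The nearest shared region was 209 kb upstream, farther than for 69.3% of protein-coding genes. The stretch around the second position, chr20:6764981-6765180, is shown because it lies near the 5′ end and holds 2 WGATAR sites, again chosen after its values were seen.
BMP2 -2.61 kb: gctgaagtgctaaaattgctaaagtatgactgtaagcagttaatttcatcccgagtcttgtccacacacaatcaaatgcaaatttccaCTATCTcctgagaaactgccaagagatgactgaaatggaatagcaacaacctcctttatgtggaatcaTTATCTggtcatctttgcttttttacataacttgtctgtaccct
Its sites were 9 and 59 bp from the position, both on the minus strand. A position with GATA sites near this 5′ end was therefore listed in 1 replicate and not in the other.

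BMP5 and BMP6 had no shared region. BMP5 (ENSG00000112175.8, chr6:55753653-55875590, minus strand) had 2 positions in replicate 1, in intron 1 at 55829206 and 7.91 kb upstream at 55883498, and 0 in replicate 2. The nearest positions of replicate 2 were 713 and 659 kb from these. Its nearest shared region was 844 kb upstream, and 98.2% of protein-coding genes had a nearer one. BMP6 (ENSG00000153162.9, chr6:7726099-7881728, plus strand) had 0 positions in either replicate over a window of 256 kb, for which the exact Poisson interval allows up to 14.4 shared regions per Mb. Its nearest shared region was 239 kb upstream. Genes with positions in replicate 1 alone, as at BMP2 and BMP5, were 15.2% of protein-coding genes, those with positions in replicate 2 alone 3.88%, and those with none in either, as at BMP6, 27.6%.

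**Figure D2:**
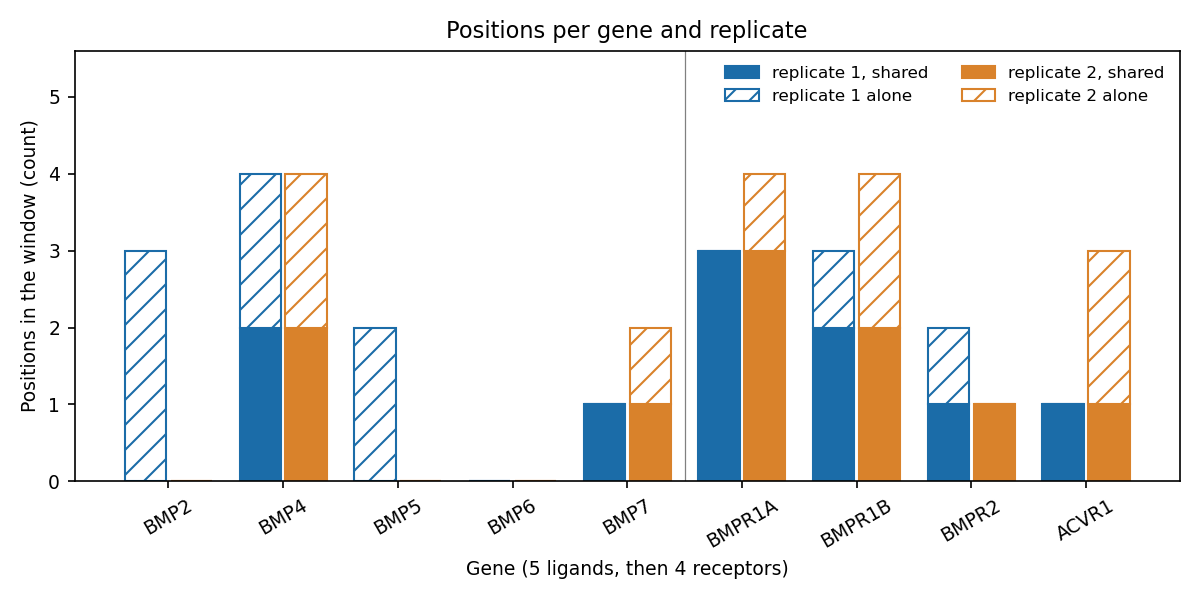
Number of GATA3 positions in the window of each gene (y axis, count) by gene (x axis, 5 ligands then 4 receptors) and replicate (blue, replicate 1; orange, replicate 2). Filled parts are positions with a partner within 100 bp in the other replicate and hatched parts those without; BMP2 and BMP5 had hatched bars in replicate 1 only, and BMP6 had no bar.

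BMPR1A is a type I receptor that binds BMP2 and BMP4 with high affinity. Its gene (ENSG00000107779.15, chr10:86756596-86932825, plus strand) had 3 positions in replicate 1 and 4 in replicate 2, and all 3 of replicate 1 were shared. The shared regions were in intron 2 within 14.5 kb of each other. They stood at 86853920 and 86853939, 97.3 kb from the 5′ end, at 86865222 and 86865217, 109 kb away, and at 86868434 and 86868455, 112 kb away. The offsets between replicates were 19, 5 and 21 bp. The last 2 of these were nearer to the start of the neighbouring coding gene SNCG, at 93.4 and 90.2 kb, than to that of BMPR1A. The remaining position of replicate 2, at 86802947 in intron 1, had no partner within 51.0 kb.

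The first BMPR1A region belongs to a repeated sequence. A search of hg38 found 954 other copies of its 200 bases at 80% identity or more over at least 150 bp, the best at 98.0% identity. Of these copies, 282, or 29.6%, had a shared region of their own within 100 bp, a number equal to 3.08% of all shared regions. The authors excluded reads that mapped to several places, and how this acts on a sequence with close copies was not tested.

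The second BMPR1A region also had copies. There were 43 elsewhere in hg38, of which 4 had a shared region, and the region held no WGATAR. The last of the BMPR1A regions had 0 copies by the same search and also held no WGATAR. The study's primer pair for SMAD1 ChIP and qPCR in BMPR1A intron 2 matched hg38 once, at chr10:86868405-86868476, with its middle 4 bp from the centre of this last region.

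BMPR1B is a type I receptor with a narrower tissue range than BMPR1A. Its gene (ENSG00000138696.11, chr4:94757955-95158448, plus strand) was the longest of the members at 400 kb and had 3 positions in replicate 1 and 4 in replicate 2, all inside the gene and all labelled with its symbol. One shared region was in intron 1, 98.3 kb from the 5′ end, at 94856274 and 94856239. The other was in intron 6, 361 kb from the 5′ end, at 95118843 and 95118780, with a TGATAA 7 bp from its centre, and lay 263 kb from the first. Replicate 1 alone listed 95044413 in intron 3, and replicate 2 alone listed 94834342 in intron 1 and 94927881 in intron 2. Per Mb of window the gene had 4.00 shared regions (exact Poisson interval 0.484 to 14.4), which overlaps the intervals of all other members.

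ACVR1 is a type I receptor that responds mainly to the subgroup of BMP7, and activating mutations of it cause ectopic bone formation. Its gene (ENSG00000115170.16, chr2:157736251-157876330, minus strand) had 1 position in replicate 1 and 3 in replicate 2. The shared region was in intron 2, 67.2 kb from the 5′ end, at 157809129 and 157809053. It had the lowest GC content of the 10 regions, 33%, and the most WGATAR sites, 3. Replicate 2 alone listed 157839369, 1.04 kb upstream of the start of an inner transcript, and 157865776, 10.6 kb from the 5′ end. The 200 bases around the latter had 39659 copies in hg38, of which 5 had a shared region within 100 bp, or 0.0126%.

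BMPR2 is the type II receptor that acts with all of these type I receptors. Its gene (ENSG00000204217.16, chr2:202376327-202567751, plus strand) had 2 positions in replicate 1 and 1 in replicate 2. The shared region was 14.0 kb upstream at 202362351 and 202362370, the only one of the receptors outside a gene body, and 10.6% of protein-coding genes had a nearer region. It held 1 WGATAR site, 58 bp from the centre, and 2 GTCTG sites, the shorter SMAD motif. Replicate 1 alone listed 202418780 in intron 1, whose window had 118 copies in hg38, of which 7 had a shared region.

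**Figure D3:**
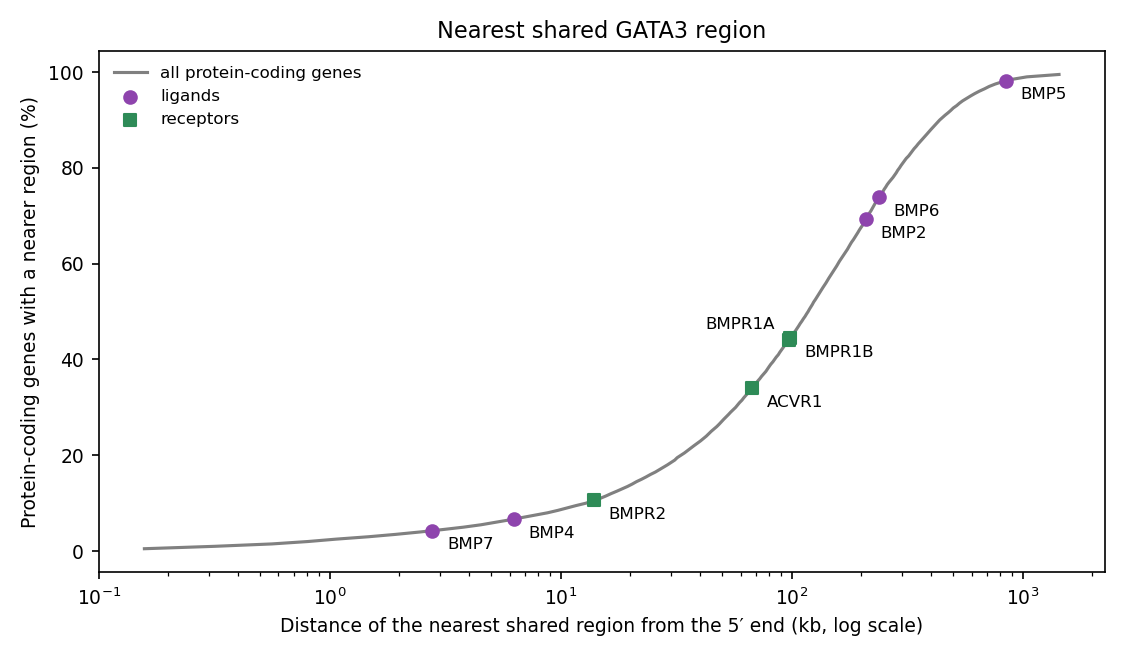
Distance of the nearest shared region from the 5′ end (x axis, kb, log scale) against the percentage of protein-coding genes with a nearer region (y axis). The grey line is all protein-coding genes, circles are ligands and squares are receptors. The ligands lie at both ends, from BMP7 at 2.78 kb to BMP5 at 844 kb, and the receptors lie between 14.0 and 98.3 kb.

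Ordered by the distance of the nearest shared region, BMP7 and BMP4 came first, then BMPR2, ACVR1, BMPR1A and BMPR1B, and last BMP2, BMP6 and BMP5. BMPR1A and BMPR1B were nearly level, at 97.3 and 98.3 kb. A shared pair is at most 100 bp apart by definition, so its spread does not show how firm this order is. Single replicates gave other orders. In replicate 1 the nearest position of BMP2, at 2.61 kb, came before that of BMP7, at 2.77 kb. In replicate 2 that of ACVR1, at 10.6 kb, came before that of BMPR2, at 14.0 kb. The median distance was 97.3 kb for the members and 118 kb for all protein-coding genes.

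Ligands and receptors were compared by the density of regions, since their windows covered 1.08 and 1.31 Mb. Ligands had 3 shared regions, 2.78 per Mb (exact Poisson interval 0.574 to 8.14), and receptors 7, 5.35 per Mb (2.15 to 11.0). The ratio of ligands to receptors was 0.520 (95% interval 0.0868 to 2.28, exact conditional binomial test, two-sided p = 0.528, adjusted p = 0.969 over the 6 comparisons of ligands with receptors). In replicate 1 the ligands were the denser class, with 10 positions against 9, a ratio of 1.35 (0.493 to 3.75, exact p = 0.646). In replicate 2 there were 6 against 12, a ratio of 0.607 (0.187 to 1.75, exact p = 0.353), and both had an adjusted p of 0.969. The densities of the classes did not differ beyond counting error in any of the 3 sets. The intervals were wide, with lower ends from 0.0868 to 0.493 and upper ends from 1.75 to 3.75.

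The classes were also compared with gene length set aside. Within 100 kb of the 5′ end alone, ligands had 3 shared regions and receptors 4, at 3.0 and 5.0 per Mb, whose Poisson intervals overlapped. The receptor count depends on this limit, since the regions of BMPR1A and BMPR1B lay just inside it, at 97.3 and 98.3 kb. Inside gene bodies there was 1 in ligands and 6 in receptors, at 2.52 and 6.61 per Mb, and these intervals overlapped too.

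The classes differed most in the share of replicate 1 positions that replicate 2 also listed. It was 3 of 10 in ligands, 30% (95% Wilson interval 10.8 to 60.3), and 7 of 9 in receptors, 77.8% (45.3 to 93.7), beside 49.6% of all positions of replicate 1. Fisher's exact test gave a two-sided p of 0.0698 and an adjusted p of 0.419, so the difference did not pass the threshold. The test takes positions as independent, although several lie at the same gene, so its p does not measure the spread between genes. Of the 7 unshared positions of the ligands, 5 were at BMP2 and BMP5. In replicate 2 the share was 3 of 6 in ligands and 7 of 12 in receptors, 50% and 58.3%, with an exact p of 1, beside 71.5% of all its positions. Over all members 52.6% of positions of replicate 1 and 55.6% of those of replicate 2 were shared.

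WGATAR was present in 7 of the 10 shared regions, 70% (95% Wilson interval 39.7 to 89.2), against 82.0% of all shared regions. The 3 without it were that of BMP7 and the last 2 of BMPR1A. It was in 2 of 3 regions of ligands and 5 of 7 of receptors (Fisher's exact test, two-sided p = 1, adjusted p = 1). There were 12 sites in all, and the nearest site was 7 to 58 bp from the centre with a median of 18 bp, the same median as over all regions. AGATAA, one form of the motif, was in 2 of the 10, at BMP4 and ACVR1, 20% (95% Wilson interval 5.67 to 51.0), against 51.6% of all shared regions, a share just above that interval. Positions found in 1 replicate alone also held WGATAR, 6 of 9 in replicate 1 and 7 of 8 in replicate 2. The share over all positions of 1 replicate alone was not computed, so these counts have no background beside them. Those of replicate 2 include the ACVR1 position at 157865776. Its 10 sites form a single run in which each overlaps the next, in the window with 39659 copies in hg38.

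**Figure D4:**
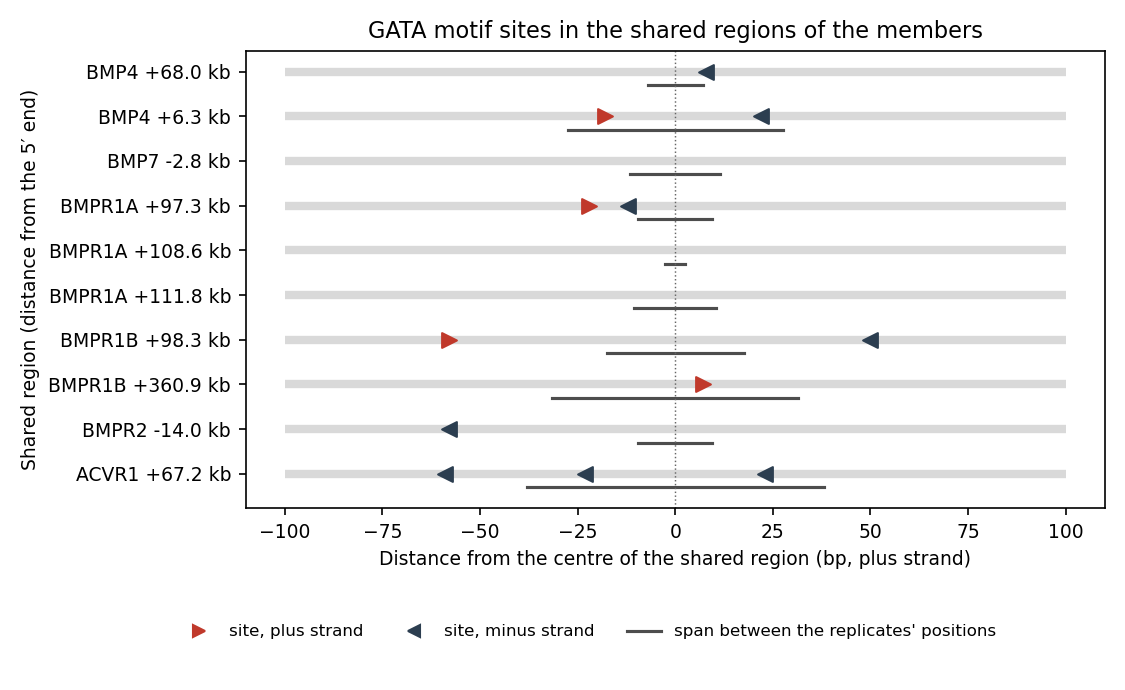
WGATAR sites (triangles) in the 200 bp around the centre of each of the 10 shared regions, by distance from the centre in bp on the plus strand (x axis) and region (y axis, gene and distance from the 5′ end). Right-pointing triangles are sites on the plus strand and left-pointing ones on the minus strand, and the short line under each row spans the positions of the replicates. The region of BMP7 and 2 of the 3 of BMPR1A have no site.

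Other motifs were counted in the same windows on both strands. GTCTG was in 3 regions, at BMPR1A, BMPR1A and BMPR2, against 36.2% of all shared regions. GGAATG, bound by TEAD proteins, was in 4 of the 10 against 18.9%, and its Wilson interval of 16.8 to 68.7% included that share. ACAAWGG, bound by SOX proteins, was in 2 of the 10 against 13.3%. The octamer ATGCAAAT, bound by POU proteins, and TGASTCA (S is C or G), bound by AP-1, were in 0, against 5.07% and 5.63%. RATAGW, the reverse of WGATAR with the same base composition, was in 5 of the 10 against 32.6%, beside 7 of the 10 for WGATAR itself. A match of letters is a description and does not show that a factor was bound there.

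Promoter sequences were searched as well. The RefSeq table of promoters (GRCh38.p14, 300 bases across each start) matched 7 of the 9 genes, all but BMP2 and BMP7. WGATAR was in a promoter of 2 of them, with 2 sites at BMPR1A and 1 at a start of ACVR1, which is 2 of their 13 listed promoters, 15.4%, against 25.0% of 35116 promoters. No position of either replicate lay within 1 kb of the outermost 5′ end of either gene. Near an inner promoter of ACVR1 that held no WGATAR, chr2:157838581-157838880, replicate 2 alone listed 157839369.

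Of 21 other genes of the pathway, 11 had a shared region in the window, beside 47.5% of all protein-coding genes. Among other BMP and GDF ligands these were 2 of 9, among other receptors of the family 5 of 6, and among co-receptors and a pseudoreceptor 4 of 6. A region lay within 10 kb of the 5′ end at 5 genes, beside 8.69% of all protein-coding genes. They were the ligand gene GDF6, at 2.50 kb, TGFBR1, a receptor of TGF-β, 8.22 kb upstream, and 3 modulators. The modulators were HJV, a BMP co-receptor, at 0.911 kb, ENG, an accessory receptor, at 8.05 kb, and BAMBI, a pseudoreceptor that blunts signaling, at 7.82 kb. These genes were chosen with results of these data known, and differences among the groups were not tested.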

How the data were processed

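GATA3 ChIP-seq was analysed in 2 replicates of H1 hESC. As the methods describe, 75 bp single-end reads were trimmed (cutadapt), aligned to hg38 (Bowtie) and freed of duplicates (Picard). Reads with several alignments and regions on the ENCODE blacklist were dropped. The authors called peaks with MACS2 (q 0.05) separately per replicate, each against its input. Their further analysis kept only peaks found in both replicates, and how presence in both was judged was not stated. Tool versions were not given in the sources used here. The lists do not have the lengths that the methods give for the called peaks, and the step between was not stated. The deposited files hold 1 position per peak and a gene name, with no width, height or q-value. How a peak was reduced to 1 position was not stated, nor whether bases were counted from 0 or 1, so positions are printed as deposited and sequences were read as if counted from 1. The input samples have no file analysed here, and no per-sample column was left unused (0).

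Gene models were those of GENCODE release 44 on the 24 chromosomes. The 5′ end was the outermost start of a gene. Windows, shared regions (100 bp), densities with exact Poisson intervals, shares with 95% Wilson intervals and exact tests were computed in Python 3.11.15 with numpy 2.4.6, pandas 2.3.3, scipy 1.17.1 and statsmodels 0.14.6. All intervals and exact tests cover counting error only, and positions and regions of one gene are not independent. P-values were adjusted by Benjamini-Hochberg over the 6 comparisons of ligands with receptors. Motifs were searched on both strands of 200 bp of hg38 around each centre. Copies were sought with blastn 2.17.0. Primers of the study, read from page images, were placed by exact match to hg38. The scripts were tested on simulated data. All 9 genes and all their regions were named, other pathway genes only with a region within 10 kb of the 5′ end, and sequences were to be those of the nearest shared region of each gene, with exceptions stated where shown. The sequences at BMPR1A and BMPR2 are not reported here. Members, gene lists, motifs and tests were chosen with earlier results of these data known. Alternatives changed the distance for sharing, the window, the 5′ end, the motif and its window, and left out a replicate or a gene.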

Additional observations from a re-analysis of the deposited data

How the results depend on the processing

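Of 87 values computed under another setting, 75 were not reversed, kept their side of the threshold and, for counts, stayed within 1.5 times. A difference that fell to 0 was not called reversed, as for replicate 2 shares with the gene body left out and without BMPR1A. The share of regions with WGATAR was called kept inside its interval of 39.7 to 89.2%. No paired analysis was possible because the input samples with the same replicate numbers have no file analysed here, which leaves 1 group. The difference in the share of replicate 2 positions that were shared, receptors minus ligands, was 8.33 percentage points and became -8.33 with positions shared within 200 or 500 bp, where the BMP4 pair 198.5 bp apart counts. The difference in WGATAR, receptors minus ligands, was 4.76 points and became -3.57 within 200 bp, -23.8 in 100 bp around the centre and -19.0 for AGATAA, which was in 20% of the regions. None of these differences passed an exact test. With a single replicate the windows held 18 to 19 positions at 6 to 8 genes, the ratio of densities was 0.607 to 1.35, the share with WGATAR 68.4 to 77.8% and its difference 16.7 to 17.8 points. The ratio lay above 1 without replicate 2.

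The difference in the share of replicate 1 positions that were shared, 47.8 points, rose to 54.5 points with windows of 200 kb (Fisher's exact p = 0.0300). Leaving out each gene in turn gave 34.9 to 61.1 points, with an exact p of 0.0406 without BMP4 (61.1 points) and 0.0498 without BMPR2 (55.7 points). These 3 of 59 tests were under 0.05 before any adjustment, so the call depends on the window and on which gene is left out. The ratio of densities ranged from 0.213 without BMP4 to 0.718 without BMPR1A, and the replicate 2 difference from 0 to 16.7 points. Leaving out regions with copies elsewhere in hg38, an alternative chosen after seeing the data, kept 8 regions at 6 genes and gave a ratio of 0.728 (exact p = 0.737). The comparisons rest on 10 regions and 37 positions, and how large a difference they could detect was not computed.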
